A study of Mus musculus with 12 samples.

Results

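The response of wild type mouse liver to ethanol feeding was taken from the raw read counts of 6 libraries, 3 from ethanol-fed and 3 from pair-fed wild type mice, among 12 libraries in all. All 13097 genes of the count table entered the comparison. Ethanol-fed mice were kept for 10 days on the Lieber-DeCarli diet containing 5% ethanol and were then given a single ethanol binge of 5 g/kg, whereas pair-fed mice received an isocaloric control diet and a binge of maltose dextrin. Both groups were female C57BL/6 mice aged 3 months, labelled wildtype, and each library came from the snap-frozen liver of an individual mouse. The remaining 6 libraries, 3 ethanol-fed and 3 pair-fed, came from mice of the same strain, sex and age labelled as liver-specific knockouts of Sirt6, and served here to estimate the spread and to test whether the response differed by genotype label. The diet and the binge were always given together, so their effects cannot be told apart, and the time between binge and tissue collection is not stated in the labels or files. Sirt6, the gene named in the genotype label, had 67, 54 and 60 reads in ethanol-fed and 51, 49 and 68 reads in pair-fed wild type mice, and 53, 58 and 62 reads in ethanol-fed and 52, 46 and 47 reads in pair-fed mice labelled knockout. Those read counts overlapped between the genotype labels, so the labelled knockout is called by its label below.

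The comparison asks which liver transcripts ethanol feeding raises or lowers when no gene is deleted. Hepatocytes oxidise ethanol to acetaldehyde with cytosolic alcohol dehydrogenase, with the microsomal cytochrome P450 CYP2E1 and, to a lesser extent, with peroxisomal catalase, and mitochondrial aldehyde dehydrogenase then turns acetaldehyde into acetate. The dehydrogenase steps consume NAD+ and produce NADH, and CYP2E1 releases reactive oxygen species. Chronic feeding followed by a binge is a standard mouse model of early alcoholic liver injury, known for fat accumulation, raised transaminases and neutrophil entry. The integrated stress response is a signalling route in which several kinases phosphorylate the translation factor eIF2α, general translation slows and the transcription factor ATF4 is made. ATF4 and its partner CHOP then switch on genes for amino acid synthesis and transport.

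The authors' counts were scaled with TMM factors and are given as CPM, reads of a gene per 1000000 scaled reads of a library, with mice in the order 1, 2 and 3 of the labels. A gene was called when edgeR's quasi-likelihood test gave an adjusted p under 0.05. Log2 fold changes (log2FC) are ethanol-fed over pair-fed, given ± an approximate standard error with 3 mice a group. In the 6 wild type libraries the total counts lay between 17462055 and 18128115. Of the 13097 genes, 4380 were called (33.4%), with 2480 higher (18.9%) and 1900 lower (14.5%), and the median log2 fold change over all genes was 0.03. At least 2-fold changes were called for 1763 genes (13.5%), of which 1146 were higher (8.75%) and 617 lower (4.71%). Every ethanol-fed mouse lay above every pair-fed mouse in 3246 genes (24.8%) and below in 2916 (22.3%). Groups that do not overlap, as given for single genes below, were thus common over all genes. Most single genes named below were also chosen by p or size of change in this same comparison, which favours such separation. With library totals in place of TMM factors the median of all genes was 0.18, and 3219 genes were higher and 1123 lower, so that the higher share of the calls was 74.1%, against 56.6% with TMM. Albumin alone took 6.37%, 8.46% and 6.93% of the reads of ethanol-fed mice and 11.9%, 11.7% and 11.9% of the reads of pair-fed mice. Without ethanol-fed mouse 3 the count of calls was 3238, and without pair-fed mouse 3 it was 3023, both under the 4380 with all libraries.

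The ethanol-fed mice differed from each other far more than the pair-fed mice did. Their biological coefficient of variation, the spread between mice beyond counting error, was 0.269, against 0.116 among pair-fed mice. It was 0.235, 0.319 and 0.234 without ethanol-fed mouse 1, 2 or 3. On the first principal component of the 6 wild type libraries, which held 68.1% of the variance, the ethanol-fed wild type mice lay at 18.43, 44.45 and 68.18, and the pair-fed wild type mice between -44.88 and -42.23. Ethanol-fed mouse 1 thus lay nearest to the pair-fed mice and mouse 3 farthest. Of the 1146 genes called at least 2-fold higher, mouse 3 held the highest of the 3 ethanol values in 794 (69.3%) and mouse 1 the lowest in 831 (72.5%), against 36.0% and 34.2% over all genes. Of the 617 genes called at least 2-fold lower, mouse 3 held the lowest value in 343 (55.6%) and mouse 1 the highest in 360 (58.3%). Counts that changed by over 1.5 times when a mouse was left out are therefore given without it as well.

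**Figure D1:**
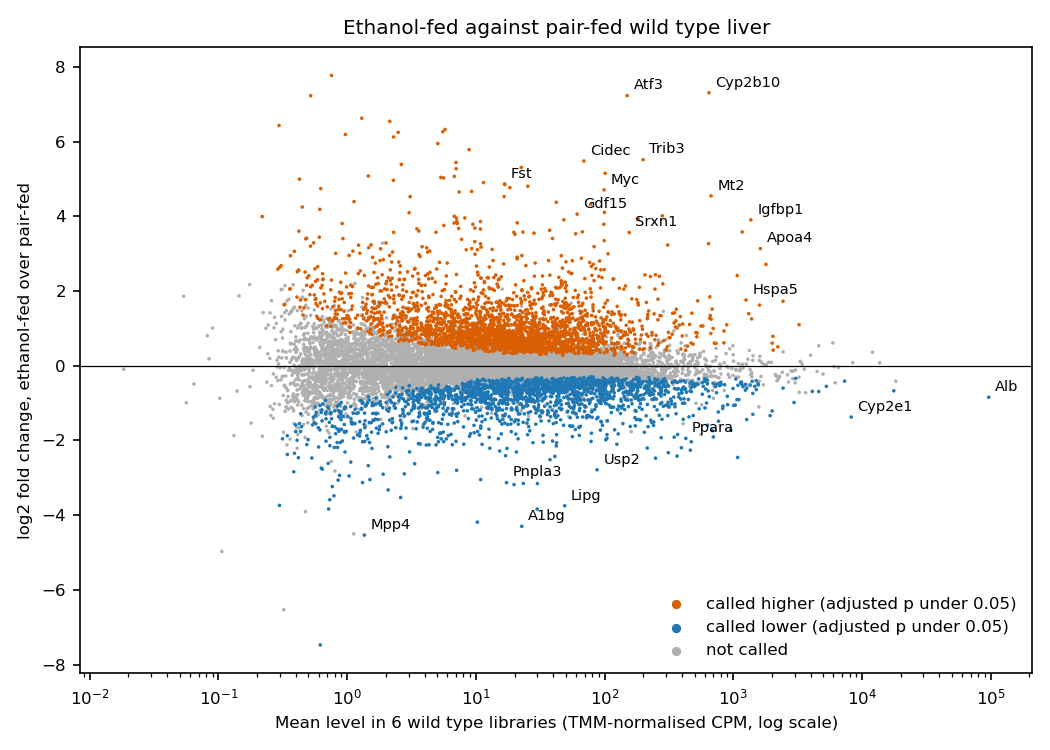
Log2 fold change of ethanol-fed over pair-fed wild type liver (vertical axis) against the mean level in the 6 wild type libraries (horizontal axis, CPM on a log scale), 1 point per gene and 3 mice a group. Genes called higher (2480) are orange, genes called lower (1900) are blue and the others grey, and labels mark genes described in the text, with Cyp2b10 and Atf3 the highest of those labelled.

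Setting aside genes under 1 CPM on average in these libraries, the largest rise was that of Cyp2b10, a cytochrome P450 gene that is the classic target of the nuclear receptor CAR (chr7:25897658-25926624 on the + strand, mm10). Cyp2b10 stood at 1134, 1255 and 1473 CPM in ethanol-fed mice, against 8.55, 8.18 and 7.60 CPM in pair-fed mice. All ethanol-fed mice were high, the groups were far apart, and the log2 fold change was 7.31 ± 0.22 (adjusted p = 7.64e-10). Atf3, which encodes a stress-induced transcription factor acting downstream of ATF4, had 39.6, 254 and 600.1 CPM in ethanol-fed mice, against 1.54, 2.05 and 2.34 CPM in pair-fed mice. Mouse 3 was highest and mouse 1 lowest among the ethanol-fed mice, and even mouse 1 lay above every pair-fed mouse (log2FC 7.23 ± 0.96, adjusted p = 0.000419). Trib3, a pseudokinase that is a target of ATF4 and CHOP, reached 145, 322 and 704 CPM in ethanol-fed mice, against 9.12, 9.41 and 7.01 CPM in pair-fed mice, a log2FC of 5.52 ± 0.67. Cidec, which promotes the fusion of lipid droplets, had 9.99, 165 and 229.9 CPM in ethanol-fed mice, against 2.51, 3.21 and 3.33 CPM in pair-fed mice, with the 3 ethanol-fed mice again in the same order and none near the pair-fed range (log2FC 5.48 ± 0.90).

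Several of the other large rises were genes nearly silent in pair-fed liver. Amphiregulin (Areg), a ligand of the EGF receptor, had 27, 76 and 137 reads in ethanol-fed and 1, 1 and 0 reads in pair-fed mice, a ratio of 110.2 after scaling with a 95% counting interval of 30.2 to 915. Artemin (Artn), a neurotrophic factor of the GDNF family, had 44, 4 and 102 reads in ethanol-fed and 0, 0 and 1 reads in pair-fed mice, a ratio of 138 (interval 24.4 to 5477). Its call was lost without ethanol-fed mouse 3 and without pair-fed mouse 1, 2 or 3. Tnfaip6, a secreted hyaluronan-binding protein induced by TNF and IL-1, had 5, 64 and 212 reads in ethanol-fed and 2, 1 and 0 reads in pair-fed mice, a ratio of 86.0 (interval 29.1 to 419.6). The intervals cover counting error only, and in these genes mouse 1 or mouse 2 lay far under mouse 3. Neuregulin 1 (Nrg1), a ligand of ERBB receptors, had 0.880, 6.44 and 33.8 CPM in ethanol-fed mice, against 0.228, 0.351 and 0.351 CPM in pair-fed mice. Bone morphogenetic protein 8b (Bmp8b) had 1.24, 7.35 and 24.2 CPM in ethanol-fed mice, against 0.114, 0.175 and 0.117 CPM in pair-fed mice. Acot5, a peroxisomal acyl-CoA thioesterase, had 0.414, 4.16 and 25.3 CPM in ethanol-fed mice, against 0, 0.292 and 0.175 CPM in pair-fed mice. All 3 were lowest in ethanol-fed mouse 1, which for Acot5 lay close to the highest pair-fed mouse. Without ethanol-fed mouse 3 the log2FC was 3.53 for Nrg1 and 3.81 for Acot5, against 5.44 and 5.95 with all mice. Fam83f and Ttll11, a tubulin polyglutamylase gene, also rose, with log2FC of 6.33 ± 1.14 and 5.79 ± 1.28.

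**Figure D2:**
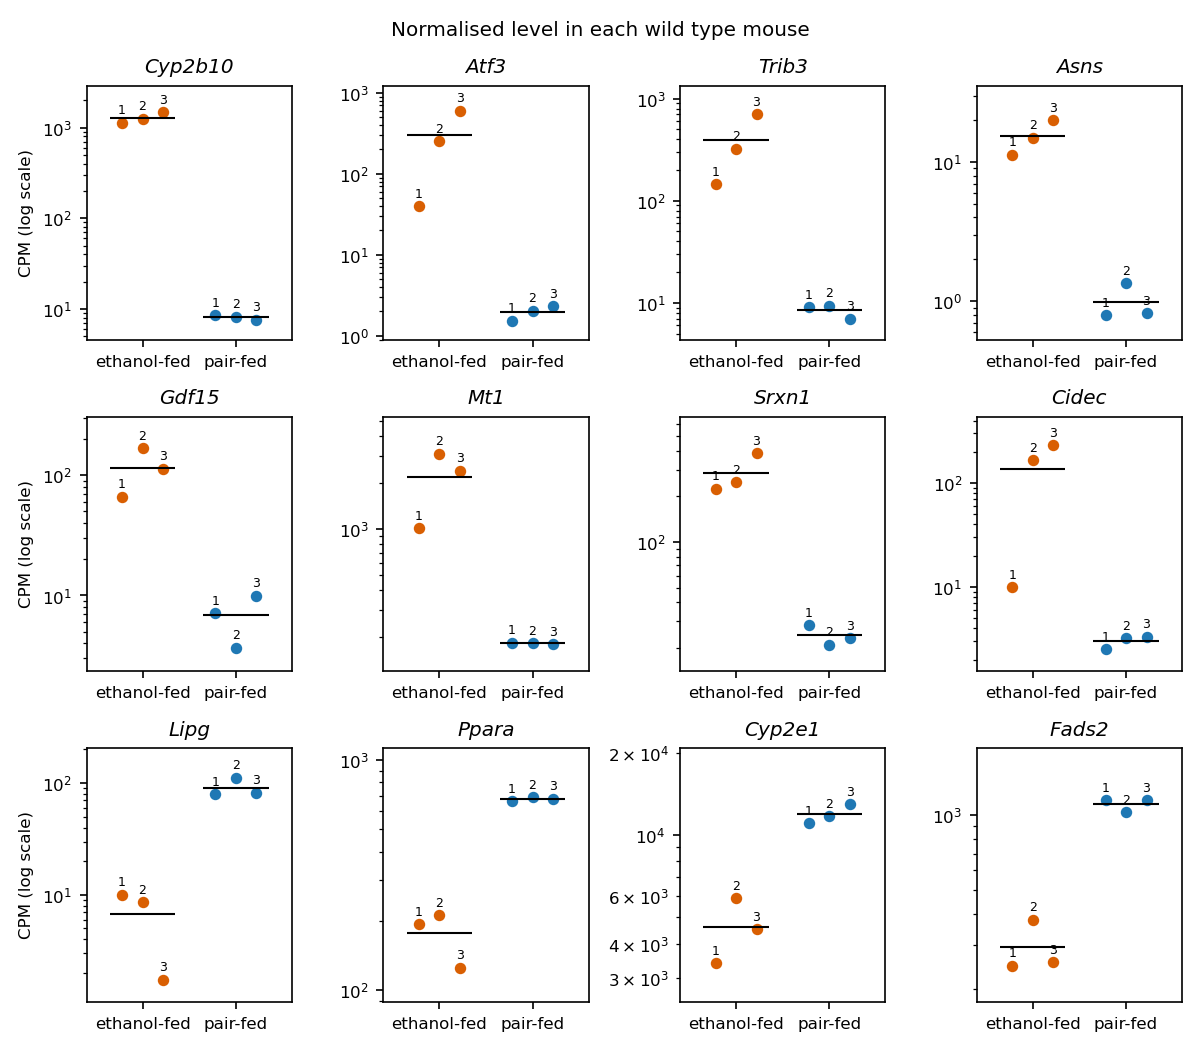
Normalised CPM (vertical axis, log scale) of 12 genes in each wild type mouse, with ethanol-fed mice on the left and pair-fed mice on the right of each panel. Points are single mice, marked 1, 2 or 3, and the horizontal bar is the mean of 3 mice. The groups do not overlap in any panel, which for Cyp2b10, Atf3, Trib3, Cidec and Lipg was a condition of their choice. The other genes were chosen by small p in the same comparison, which favours groups that do not overlap. Ethanol-fed mouse 1 is the lowest of its group for Atf3 and Trib3.

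Among the 12 largest falls were genes of lipid handling and hormone metabolism. Lipg, endothelial lipase, which cleaves phospholipids of HDL, had 10.04, 8.61 and 1.74 CPM in ethanol-fed mice, against 80.1, 112 and 82.1 CPM in pair-fed mice. The fall was present in every ethanol-fed mouse and deepest in mouse 3 (log2FC -3.75 ± 0.52, adjusted p = 0.000499). Pnpla3, a lipid droplet hydrolase driven by insulin and SREBP-1c whose human variant is tied to fatty liver disease, had 6.26, 2.39 and 1.95 CPM in ethanol-fed mice, against 32.9, 37.5 and 22.8 CPM in pair-fed mice, a log2FC of -3.13 ± 0.51. Hsd3b2, a 3β-hydroxysteroid dehydrogenase gene, had 1.502, 4.22 and 1.38 CPM in ethanol-fed mice, against 19.2, 20.1 and 18.9 CPM in pair-fed mice. Sult3a1, a sulfotransferase gene, had 8.44, 2.22 and 3.49 CPM in ethanol-fed mice, against 21.8, 59.3 and 45.1 CPM in pair-fed mice. In both genes the highest ethanol-fed mouse lay well under the lowest pair-fed mouse, although some separation was a condition of their choice. Camk4, a calmodulin-dependent kinase (log2FC -3.53 ± 0.46), Nxpe2 (log2FC -3.18 ± 0.30) and Ankrd37, a target of the hypoxia-inducible factor (log2FC -3.13 ± 0.41), fell as well. The pair-fed mice themselves varied in A1bg, a plasma glycoprotein, which had 3.52, 1.77 and 1.28 CPM in ethanol-fed mice, against 8.89, 41.4 and 79.6 CPM in pair-fed mice, and in Slc17a8, a vesicular glutamate transporter, which had 6.01, 4.33 and 7.85 CPM in ethanol-fed mice, against 25.9, 80.5 and 55.8 CPM in pair-fed mice. The remaining large falls were those of Mpp4, Sema5b and Mycn, all with few reads. Mpp4, which had the largest fold of these 12, had 1, 1 and 4 reads in ethanol-fed and 32, 49 and 54 reads in pair-fed mice.

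Genes of the integrated stress response rose together. Of 27 tested targets of ATF4 and CHOP, 20 were called higher and 1 lower, and the median log2 fold change was 1.39, beside 18.9% higher, 14.5% lower and a median of 0.03 over all genes. In single ethanol-fed mice the median of the list against the pair-fed mean was 1.07, 1.42 and 1.62 in log2 units, so the list was up in each mouse and least so in mouse 1. Asns, asparagine synthetase, had 11.3, 14.99 and 19.999 CPM in ethanol-fed mice, against 0.798, 1.34 and 0.818 CPM in pair-fed mice, a log2FC of 3.96 ± 0.35 (adjusted p = 3.22e-05). Psat1, which makes phosphoserine, had 22.5, 27.5 and 56.4 CPM in ethanol-fed mice, against 1.03, 2.10 and 0.760 CPM in pair-fed mice. Mthfd2, a mitochondrial enzyme of one-carbon metabolism, had 9.84, 10.7 and 19.5 CPM in ethanol-fed mice, against 0.684, 1.23 and 0.818 CPM in pair-fed mice. In all 3 genes the lowest ethanol-fed mouse lay several times above the highest pair-fed mouse. Ddit3, which encodes CHOP, had 43.1, 146 and 256 CPM in ethanol-fed mice, against 8.38, 6.96 and 6.90 CPM in pair-fed mice. Atf4 itself had 152, 259 and 272 CPM in ethanol-fed mice, against 98.04, 110.1 and 95.5 CPM in pair-fed mice, a smaller log2FC of 1.17 ± 0.19 against 4.32 ± 0.56 for Ddit3. Other members that rose were Nupr1, a stress-induced chromatin protein (log2FC 3.82 ± 0.42), Sesn2, an inhibitor of mTORC1 (log2FC 2.10 ± 0.21), Pck2, the mitochondrial form of PEP carboxykinase (log2FC 1.58 ± 0.16), Atf5 (log2FC 1.27 ± 0.19) and the alanine transaminase Gpt2 (log2FC 1.39 ± 0.24). Shmt2, a mitochondrial serine hydroxymethyltransferase, was the 1 member that fell (log2FC -0.72 ± 0.13).

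Amino acid supply genes accompanied them. Of 20 tested cytosolic aminoacyl-tRNA synthetases, which charge tRNAs with amino acids and many of which ATF4 is known to induce, 11 rose and 0 fell, with a median log2 fold change of 0.50. Lars, the leucine enzyme, had 54.5, 71.03 and 95.4 CPM in ethanol-fed mice, against 25.4, 29.4 and 21.3 CPM in pair-fed mice. Gars, the glycine enzyme, had 92.6, 113 and 156 CPM in ethanol-fed mice, against 51.7, 56.8 and 49.3 CPM in pair-fed mice. Neither overlapped between groups. Of 25 amino acid transporters tested, 7 rose and 3 fell, against 5 higher and 0 lower without pair-fed mouse 1, and 5 higher and 1 lower without pair-fed mouse 3, and 7 higher and 0 lower with library totals. Slc7a1, a carrier of arginine and lysine, had 8.91, 12.8 and 31.3 CPM in ethanol-fed mice, against 1.31, 0.994 and 1.52 CPM in pair-fed mice, a log2FC of 3.79 ± 0.44. Rises were also called for Slc3a2, the heavy chain of several exchangers (log2FC 1.24 ± 0.14), Slc1a4, a carrier of small neutral amino acids (log2FC 1.93 ± 0.29), and Slc43a1, a carrier of branched-chain amino acids (log2FC 1.40 ± 0.25). Slc38a3 and Slc38a4, carriers of glutamine and other neutral amino acids, were not called (log2FC -0.35 ± 0.19 and -0.30 ± 0.19), although Slc38a4 was called without ethanol-fed mouse 2 (log2FC -0.56, adjusted p = 0.0256).

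Because genes of the amino acid, metal, oxidant and sterol responses moved in groups, their promoters were searched for the core motifs of those responses. The windows are RefSeq sequences of build GRCm38.p6, read on the gene's strand, and the capitals mark the match. The amino acid response element, bound by ATF4 with CHOP or C/EBP proteins, was searched as TGATGNAA, the metal response element bound by MTF1 as TGCGCNC, the antioxidant response element bound by NRF2 as TGACNNNGC and the sterol response element bound by SREBP as TCACNCCA, each on both strands of the 250 bases before and 50 after the start. Matches of different motifs were not screened for overlap.
Asns: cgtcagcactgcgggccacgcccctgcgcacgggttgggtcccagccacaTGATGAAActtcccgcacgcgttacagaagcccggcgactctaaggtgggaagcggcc
Trib3: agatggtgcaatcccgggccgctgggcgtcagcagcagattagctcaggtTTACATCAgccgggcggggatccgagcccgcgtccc
Mt1: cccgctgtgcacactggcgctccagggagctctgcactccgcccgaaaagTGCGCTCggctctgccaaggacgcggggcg
Mt2: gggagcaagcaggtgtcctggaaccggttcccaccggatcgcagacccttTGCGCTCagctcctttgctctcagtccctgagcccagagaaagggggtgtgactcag
Slc30a1: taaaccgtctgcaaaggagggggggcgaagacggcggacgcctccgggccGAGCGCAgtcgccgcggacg
Srxn1: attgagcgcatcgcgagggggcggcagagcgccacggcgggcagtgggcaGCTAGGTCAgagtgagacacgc
Hmgcs1: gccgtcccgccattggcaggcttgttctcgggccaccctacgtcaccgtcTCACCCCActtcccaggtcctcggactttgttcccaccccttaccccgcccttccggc
The Asns window is chr6:7693175-7693282 (- strand), with the match at bases -23 to -16 from the start, and the Trib3 window is chr2:152344011-152344096 (- strand), with the match on the opposite strand at bases 15 to 22. The Mt1 window is chr8:94179059-94179138 (+ strand) and the Mt2 window chr8:94172440-94172546 (+ strand), and Mt2 held another match on the opposite strand at bases 5 to 11. The windows of Slc30a1, Srxn1 and Hmgcs1 are chr1:191906761-191906830 (+ strand), chr2:152105502-152105573 (+ strand) and chr13:119690164-119690271 (+ strand), with the matches of Slc30a1 and Srxn1 on the opposite strand. Of the 32851 promoters in the table, 3.97% held TGATGNAA, 15.39% TGCGCNC, 12.39% TGACNNNGC and 4.36% TCACNCCA. The next shares count genes, with a match in any promoter of the gene, so they cannot be set against the shares of promoters. TGATGNAA was found for 5.34% of the 843 genes called at least 2-fold higher that had a promoter. It was found for 2.18% of the 458 such genes called at least 2-fold lower, and 2.78% of the 10021 such genes tested. TGCGCNC was found for 28.83% of the 2-fold higher genes, 24.67% of the 2-fold lower genes and 29.52% of the tested genes. TGACNNNGC was in 17.91%, 15.72% and 17.07%, and TCACNCCA in 5.10%, 5.90% and 4.51%, of the same sets in the same order. The Ddit3 and Nqo1 windows and 2 of the Txnrd1 windows held no match to the motif of their response. Gclm, which fell, held a match to the antioxidant element, as did another Txnrd1 window.

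Endoplasmic reticulum chaperones did not move alike in the ethanol-fed mice. Of 25 tested chaperones and sensors of the unfolded protein response, 5 rose and 0 fell. The share that rose was near the 18.9% higher over all genes, and the share that fell was under the 14.5% lower. Without ethanol-fed mouse 1 the counts were 5 higher and 2 lower, and with library totals they were 8 higher and 0 lower. The median of the list against the pair-fed mean was 0.97, -0.05 and -0.59 in log2 units in ethanol-fed mice 1, 2 and 3, and 0.01, 0.11 and -0.14 in pair-fed mice. Mouse 1 lay above the pair-fed range in 23 of the 25 genes, whereas mouse 3 lay below it in 16, against 5417 above in mouse 1 and 5385 below in mouse 3 among all 13097 genes. Hspa5, the major chaperone BiP, had 2664, 1209.7 and 1946 CPM in ethanol-fed mice, against 578, 637 and 502 CPM in pair-fed mice, so it was above the pair-fed mice in every ethanol-fed mouse, most in mouse 1 and least in mouse 2 (log2FC 1.76 ± 0.35). Hsp90b1, the chaperone GRP94, had 1962, 789 and 498 CPM in ethanol-fed mice, against 824, 821 and 723 CPM in pair-fed mice, with ethanol-fed mice 1 and 3 on opposite sides of the pair-fed mice, and it was not called. The members that rose besides Hspa5 were Ero1l, an oxidase that forms disulfide bonds (log2FC 1.40 ± 0.27), the sensors Atf6 (log2FC 0.99 ± 0.17) and Ern1 (log2FC 1.04 ± 0.35) and the transcription factor Xbp1 (log2FC 0.70 ± 0.16). The call of Ern1 was lost without ethanol-fed mouse 3 and without each of the pair-fed mice in turn, and without ethanol-fed mouse 3 the log2FC was 0.62 for Ern1 and 0.91 for Ero1l.

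**Figure D3:**
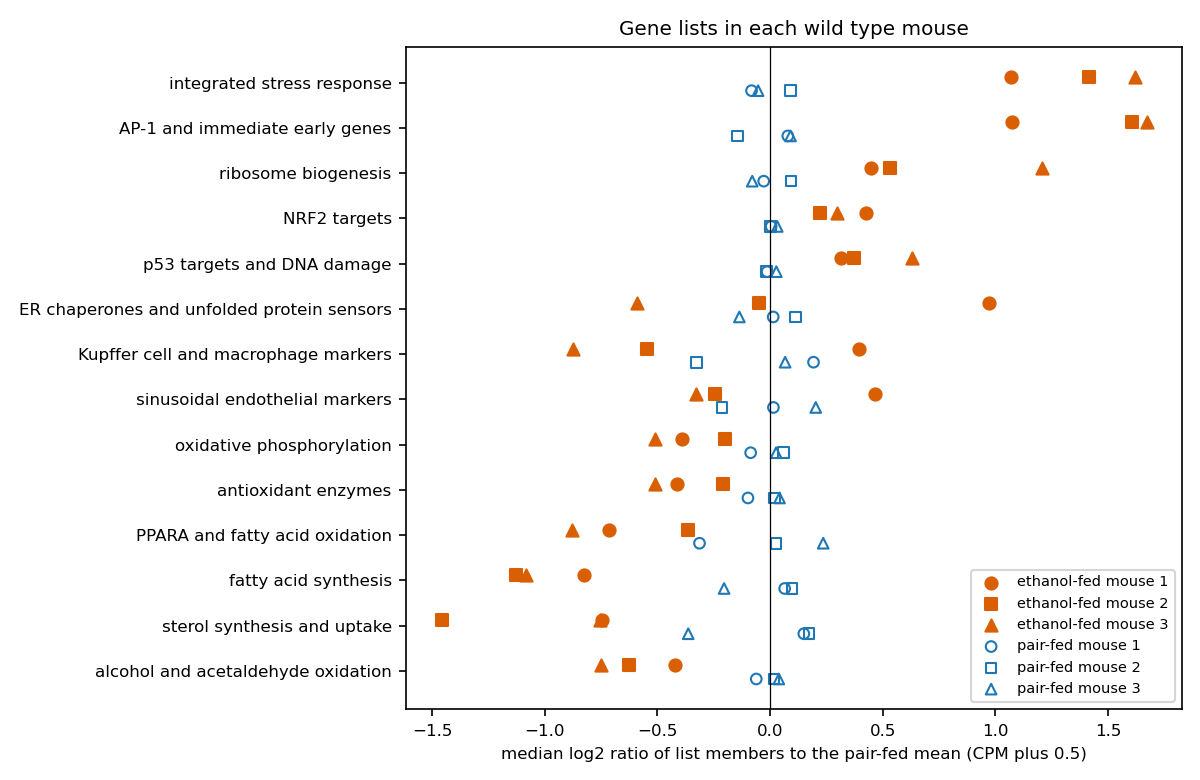
Median log2 ratio of the members of 14 gene lists in each wild type mouse against the mean of the pair-fed mice (horizontal axis), with 1 row per list. Filled markers are ethanol-fed mice 1, 2 and 3 and open markers are pair-fed mice. Chaperones, Kupffer cell markers and sinusoidal endothelial markers lie above 0 in ethanol-fed mouse 1 and below 0 in mouse 3, whereas the integrated stress response lies above 0 and sterol synthesis below 0 in all 3.

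Heat shock proteins of the cytosol and mitochondria were mixed. Of 19 tested, 6 rose and 3 fell, against 5 to 6 higher and 1 to 5 lower when ethanol-fed mouse 1, 2 or 3 or pair-fed mouse 2 or 3 was left out, and 6 higher and 1 lower with library totals. Dnajb1, a co-chaperone induced by HSF1, had 19.4, 11.3 and 10.3 CPM in ethanol-fed mice, against 32.03, 35.01 and 44.7 CPM in pair-fed mice. Hspb1, a small heat shock protein, had 3.52, 4.45 and 3.69 CPM in ethanol-fed mice, against 1.54, 2.22 and 2.10 CPM in pair-fed mice. The groups did not overlap in either gene, and the log2 fold changes were -1.44 ± 0.26 and 0.99 ± 0.21. The median of this list was -0.14 with TMM factors and 0.02 with library totals.

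Immediate early genes and their feedback regulators were high. Of 23 tested genes of the AP-1 group and other immediate early genes, 16 rose and 0 fell, with 14 higher and 1 lower without ethanol-fed mouse 2, and the median log2 fold change was 1.87. Myc, a growth-promoting transcription factor, had 47.8, 121 and 404 CPM in ethanol-fed mice, against 5.93, 7.54 and 8.42 CPM in pair-fed mice (adjusted p = 0.000735). Jun, a subunit of AP-1, had 90.3, 161 and 315 CPM in ethanol-fed mice, against 20.9, 24.8 and 25.3 CPM in pair-fed mice. Jund had 244, 484 and 464 CPM in ethanol-fed mice, against 101, 78.7 and 108 CPM in pair-fed mice. Klf6, a zinc finger factor induced by liver injury, had 32.4, 86.4 and 176 CPM in ethanol-fed mice, against 12.8, 12.9 and 16.2 CPM in pair-fed mice, and in all 4 genes every ethanol-fed mouse was above every pair-fed mouse. Egr1 rose as well (log2FC 2.05 ± 0.61), but its call was lost without ethanol-fed mouse 2 and without pair-fed mouse 2 or 3. Of 13 dual specificity phosphatases, which switch off MAP kinases, 7 rose and 1 fell, against 7 higher and 0 lower without ethanol-fed mouse 1 or 2 or pair-fed mouse 1, 2 or 3, and 8 higher and 0 lower with library totals. Dusp8, which acts on JNK and p38, had 21.5, 48.4 and 61.9 CPM in ethanol-fed mice, against 1.03, 0.760 and 1.52 CPM in pair-fed mice, while Dusp4, Dusp5 and Dusp6, which act mainly on ERK, had log2FC of 3.32 ± 0.33, 3.76 ± 0.61 and 1.36 ± 0.22.

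Targets of p53 included some of the larger rises. Of 23 tested, 11 rose and 0 fell, with a median log2 fold change of 0.51, against 12 higher and 2 lower without ethanol-fed mouse 1, and 7 higher and 0 lower without pair-fed mouse 3. Gadd45a, which acts in cell cycle arrest and repair, had 33.8, 165 and 391 CPM in ethanol-fed mice, against 6.16, 6.25 and 4.15 CPM in pair-fed mice. Cdkn1a, the cyclin-dependent kinase inhibitor p21, had 57.1, 131 and 141 CPM in ethanol-fed mice, against 3.53, 19.1 and 5.79 CPM in pair-fed mice. In both genes mouse 3 was highest and no ethanol-fed mouse reached down to the pair-fed range. Tigar, an inhibitor of glycolysis (log2FC 1.07 ± 0.19), and Trp53inp1, a p53 cofactor (log2FC 1.78 ± 0.37), rose as well. Gadd45a and Gdf15 are known as targets of CHOP as well. Of 26 genes of apoptosis and necroptosis, 5 rose and 5 fell, against 2 higher and 4 lower without pair-fed mouse 2, with Tnfrsf12a, the TWEAK receptor, higher (log2FC 3.59 ± 0.59) and Bmf, a BH3-only protein, lower (log2FC -1.92 ± 0.26). With all mice the shares of this list, 19.2% higher and 19.2% lower, stood beside 18.9% and 14.5% over all genes.

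Secreted regulators from the liver included large rises. Of 29 tested hepatokines and growth factors, 12 rose and 4 fell, and the median was -0.04 with TMM factors and 0.10 with library totals, which gave 12 higher and 2 lower. Gdf15, a stress hormone that lowers food intake through the brainstem, had 66.2, 167 and 113 CPM in ethanol-fed mice, against 7.12, 3.68 and 9.94 CPM in pair-fed mice (adjusted p = 0.000108). Fst, follistatin, which binds activins, had 15.999, 51.6 and 29.5 CPM in ethanol-fed mice, against 1.54, 0.877 and 0.877 CPM in pair-fed mice. Inhbb, the activin βB subunit, had 20.6, 27.5 and 23.5 CPM in ethanol-fed mice, against 4.10, 1.81 and 4.21 CPM in pair-fed mice. No value of either group lay near the other group. Igfbp1, a binding protein of insulin-like growth factors that insulin represses, had 1203, 4069 and 2437 CPM in ethanol-fed mice, against 138, 201 and 175 CPM in pair-fed mice. Fgf21, a fasting and stress hormone induced by ATF4 and by PPARα, had 31.3, 78.6 and 18.9 CPM in ethanol-fed mice, against 2.51, 4.73 and 3.51 CPM in pair-fed mice, with mouse 2 highest (log2FC 3.58 ± 0.78). Inhbc, the activin βC subunit made chiefly by hepatocytes, had 38.1, 31.9 and 25.7 CPM in ethanol-fed mice, against 84.8, 97.8 and 111 CPM in pair-fed mice, a fall in all 3 mice. The liver's Igf1 was not called (log2FC 0.03 ± 0.18).

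Genes for making ribosomes rose most of all in mouse 3. Of 35 tested genes of nucleolar ribosome assembly, 26 rose and 0 fell, with a median log2 fold change of 0.82, against 21 higher and 1 lower without ethanol-fed mouse 3, and 23 higher and 1 lower without pair-fed mouse 1. Mouse 3 held the highest ethanol value in 34 of the 35 genes, against 36.0% over all genes, and the median against the pair-fed mean was 0.45, 0.53 and 1.21 in mice 1, 2 and 3. Nop58, a core protein of box C/D particles, had 44.2, 61.2 and 124 CPM in ethanol-fed mice, against 16.4, 17.9 and 14.8 CPM in pair-fed mice. Rrp12, a factor of subunit export, had 30.6, 32.2 and 81.1 CPM in ethanol-fed mice, against 7.12, 10.2 and 9.94 CPM in pair-fed mice. The groups were apart in both, with the same order of mice. The ribosomal proteins themselves did not follow: of 76 tested, 3 rose and 5 fell, the median was -0.11 with TMM factors and 0.04 with library totals, and the counts were 1 to 4 higher and 2 to 4 lower when any 1 of the 6 mice was left out, and 5 higher and 1 lower with library totals.

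Protein breakdown genes gave a mixed picture. Of 35 genes of autophagy and lysosomes, 9 rose and 8 fell, against 3 to 5 higher and 6 to 7 lower when ethanol-fed mouse 2 or pair-fed mouse 1, 2 or 3 was left out, and 12 higher and 5 lower with library totals. With all mice the shares of this list, 25.7% higher and 22.9% lower, stood beside 18.9% and 14.5% over all genes. Sqstm1, the autophagy receptor p62, had 936, 1581 and 2905 CPM in ethanol-fed mice, against 333, 326 and 357 CPM in pair-fed mice. Ctsl, the lysosomal protease cathepsin L, had 1348, 2735 and 5261 CPM in ethanol-fed mice, against 471, 494 and 457 CPM in pair-fed mice. Both were several times higher in each ethanol-fed mouse, whereas Map1lc3b, the autophagosome protein LC3B, was lower (log2FC -0.69 ± 0.14) and so was Atg14 (log2FC -1.001 ± 0.14). Of 31 proteasome subunits, 3 rose and 0 fell, against 3 higher and 1 lower without ethanol-fed mouse 1, and 2 higher and 2 lower without ethanol-fed mouse 2, and 7 higher and 0 lower with library totals, with Psmc2 (log2FC 0.74 ± 0.14) and Psmd11 (log2FC 0.71 ± 0.15) higher. The median log2 fold change was -0.06 for the first list and -0.01 for the proteasome with TMM factors, and 0.10 and 0.14 with library totals.

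Targets of NRF2, the oxidant-sensing transcription factor, rose in part. Of 26 tested, 12 rose and 3 fell, against 12 higher and 5 lower without ethanol-fed mouse 1. Srxn1, sulfiredoxin, which repairs oxidised peroxiredoxins, had 225, 249.7 and 386 CPM in ethanol-fed mice, against 28.3, 20.98 and 23.2 CPM in pair-fed mice. Hmox1, heme oxygenase 1, had 162, 85.9 and 177 CPM in ethanol-fed mice, against 23.9, 15.9 and 24.8 CPM in pair-fed mice. Abcc4, an efflux pump, had 122, 161 and 269 CPM in ethanol-fed mice, against 15.7, 8.42 and 15.8 CPM in pair-fed mice. Each stood above the pair-fed range in every ethanol-fed mouse, with log2FC of 3.57 ± 0.23, 2.72 ± 0.31 and 3.79 ± 0.41. Nqo1, a quinone reductase, rose less (log2FC 1.38 ± 0.24), and Gclm, the modifier subunit of glutathione synthesis, had 138, 105 and 119 CPM in ethanol-fed mice, against 181, 204 and 196 CPM in pair-fed mice, a log2FC of -0.68 ± 0.13.

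Glutathione transferases were higher where they were called, with few exceptions. Of 22 tested, 10 rose and 2 fell, against 8 to 9 higher and 0 to 1 lower when ethanol-fed mouse 3 or pair-fed mouse 1, 2 or 3 was left out, and 11 higher and 1 lower with library totals. Gstm3 had 404, 255 and 369.7 CPM in ethanol-fed mice, against 31.9, 17.6 and 18.004 CPM in pair-fed mice. Gstm1 had 2713, 2387 and 2143 CPM in ethanol-fed mice, against 818, 847 and 684 CPM in pair-fed mice. Gsta1 had 5.28, 3.36 and 4.67 CPM in ethanol-fed mice, against 0, 0.234 and 0.175 CPM in pair-fed mice. All ethanol-fed mice were above all pair-fed mice in these genes, and Mgst1, the microsomal enzyme, was not called (log2FC -0.29 ± 0.16). Members of a family share sequence, so reads may be split between them in ways that were not tested. By contrast, of 22 antioxidant enzymes 10 fell and 1 rose, against 0 higher and 6 to 9 lower when ethanol-fed mouse 1 or pair-fed mouse 1 or 3 was left out. Cat, catalase, had 1499.5, 1209 and 924 CPM in ethanol-fed mice, against 2843, 2712 and 2837 CPM in pair-fed mice. Sod1, the cytosolic superoxide dismutase, had 450.5, 533 and 456 CPM in ethanol-fed mice, against 709, 715 and 789 CPM in pair-fed mice. Prdx6, a peroxiredoxin (log2FC -0.67 ± 0.13), Sod2, the mitochondrial dismutase (log2FC -0.52 ± 0.12), and Sod3, the extracellular one (log2FC -0.94 ± 0.14), fell too.

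Metallothioneins, small proteins that bind zinc and copper and are induced by metals, glucocorticoids and stress, rose steeply. Mt1 had 1013, 3089 and 2395 CPM in ethanol-fed mice, against 183, 181 and 178 CPM in pair-fed mice (adjusted p = 0.000291). Mt2 had 450.3, 1846 and 1573 CPM in ethanol-fed mice, against 46.2, 63.8 and 55.4 CPM in pair-fed mice. Both were raised in all 3 mice, least in mouse 1, with log2FC of 3.58 ± 0.45 and 4.55 ± 0.60. Slc30a1, a zinc exporter whose gene is, like those of the metallothioneins, a target of MTF1, had 77.4, 96.2 and 190.4 CPM in ethanol-fed mice, against 43.1, 40.2 and 40.5 CPM in pair-fed mice. Slc39a14, a zinc and iron importer, rose (log2FC 0.61 ± 0.15), whereas Slc39a5, another importer, fell (log2FC -1.50 ± 0.33). Over all 13 metallothioneins and zinc transporters tested, 5 rose and 2 fell, against 4 higher and 1 lower without ethanol-fed mouse 2 or pair-fed mouse 2 or 3, and 5 higher and 1 lower without ethanol-fed mouse 3 or pair-fed mouse 1, and 6 higher and 1 lower with library totals. Of 24 genes of iron handling, 5 rose and 4 fell, against 3 to 5 higher and 2 lower when ethanol-fed mouse 3 or pair-fed mouse 1, 2 or 3 was left out, and 8 higher and 2 lower with library totals. With all mice the iron shares, 20.8% higher and 16.7% lower, were near the 18.9% and 14.5% over all genes. Hfe2, the hemojuvelin of hepcidin control, had 110.2, 173 and 159.7 CPM in ethanol-fed mice, against 50.8, 45.01 and 53.2 CPM in pair-fed mice. Trf, transferrin, had 14025, 14963 and 11908 CPM in ethanol-fed mice, against 20422, 20499.7 and 24135 CPM in pair-fed mice.

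Genes listed for alcohol and acetaldehyde oxidation, which also include Acss2 and Aldh3a2 of other steps, were lower where they were called. Of 15 tested, 11 fell and 0 rose, with a median log2 fold change of -0.53, against 0 higher and 7 lower without ethanol-fed mouse 3 or pair-fed mouse 2 or 3, and 0 higher and 7 lower with library totals. Cyp2e1 had 3393, 5876 and 4528 CPM in ethanol-fed mice, against 11043, 11716 and 12964 CPM in pair-fed mice, a log2FC of -1.37 ± 0.19 (adjusted p = 0.000309). By gene length its level was 2649 RPKM in ethanol-fed mice and 6859 RPKM in pair-fed mice, which placed it among the 10 highest levels per length over both groups. Adh1, the main hepatic alcohol dehydrogenase, had 3019.9, 4006 and 3328 CPM in ethanol-fed mice, against 3368, 3839.8 and 3797 CPM in pair-fed mice, with overlapping groups and no call (log2FC -0.09 ± 0.15). Adh4 had 19.2, 20.4 and 21.4 CPM in ethanol-fed mice, against 69.8, 58.5 and 50.6 CPM in pair-fed mice. Adh5 fell (log2FC -0.71 ± 0.15). Falls were also called for Aldh3a2, a fatty aldehyde dehydrogenase (log2FC -0.82 ± 0.16), Acss2, which activates acetate in the cytosol (log2FC -1.09 ± 0.27), and Aldh2, the mitochondrial acetaldehyde enzyme (log2FC -0.34 ± 0.12). The call of Aldh2 was lost when any library other than that of ethanol-fed mouse 2 was left out.

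Nuclear genes of oxidative phosphorylation fell modestly. Of 79 tested subunits, 29 fell and 0 rose, with a median log2 fold change of -0.36, against 0 higher and 6 to 16 lower when ethanol-fed mouse 1 or 3 or pair-fed mouse 2 or 3 was left out, and 0 higher and 12 lower with library totals. The 6 calls came without ethanol-fed mouse 3 and likewise without pair-fed mouse 2. Fewer genes were called without those mice, while the values were below the pair-fed range in 72 of 79 genes in ethanol-fed mouse 1, 58 in mouse 2 and 74 in mouse 3, against 4533, 5098 and 5385 of all 13097 genes. The list median against the pair-fed mean was -0.39, -0.20 and -0.51. Uqcrfs1, the Rieske iron-sulfur protein of complex III, had 144, 161 and 113 CPM in ethanol-fed mice, against 208, 223 and 234 CPM in pair-fed mice. Atp5a1, the α subunit of ATP synthase, had 935, 974 and 769.5 CPM in ethanol-fed mice, against 1189, 1348 and 1308 CPM in pair-fed mice. Ndufs3, a subunit of complex I, had 47.3, 52.7 and 39.2 CPM in ethanol-fed mice, against 65.7, 65.9 and 67.5 CPM in pair-fed mice. All 3 fell without overlap between groups, by less than 1 log2 unit. Of 22 genes of NAD metabolism and sirtuins, 8 fell and 1 rose, against 0 to 3 higher and 5 to 9 lower when any 1 of the 6 mice was left out, and 2 higher and 5 lower with library totals. Nampt, which catalyses the limiting step of NAD salvage, had 95.7, 80.1 and 78.2 CPM in ethanol-fed mice, against 166, 198 and 179.9 CPM in pair-fed mice, and the mitochondrial deacylases Sirt3 and Sirt4 fell with log2FC of -0.69 ± 0.14 and -0.66 ± 0.17 as did the nucleolar Sirt7 (log2FC -0.81 ± 0.16).

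Fatty acid oxidation genes were lower. Of 31 tested genes of PPARα signalling, fatty acid oxidation and ketogenesis, 19 fell and 1 rose, with a median of -0.61, against 1 higher and 10 lower without pair-fed mouse 3. Ppara, the nuclear receptor itself, had 194, 211 and 125 CPM in ethanol-fed mice, against 665, 691 and 681 CPM in pair-fed mice (adjusted p = 7.75e-05). Eci2, an enoyl-CoA isomerase of peroxisomes, had 133, 151 and 81.9 CPM in ethanol-fed mice, against 281, 344 and 381 CPM in pair-fed mice. Acaa1b, a peroxisomal thiolase, had 243, 376 and 325 CPM in ethanol-fed mice, against 608, 966 and 1269.6 CPM in pair-fed mice. Each was lower in all 3 ethanol-fed mice, and mouse 2 held the highest ethanol value in 28 of the 31 genes of the list, against 27.9% over all genes. Fabp1, the cytosolic fatty acid binding protein, had 859, 1473 and 966 CPM in ethanol-fed mice, against 2344, 2758 and 3205 CPM in pair-fed mice. Creb3l3, a liver transcription factor of fasting, was the 1 member that rose (log2FC 0.80 ± 0.15). Of 19 peroxisome biogenesis genes, 6 fell and 2 rose, against 0 to 1 higher and 5 to 6 lower when ethanol-fed mouse 2 or 3 or pair-fed mouse 1 or 2 was left out, with Pex6 (log2FC -1.06 ± 0.12) and Pex11a, a PPARα target of peroxisome division (log2FC -0.85 ± 0.17), among the falls.

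Lipid synthesis genes fell as well. Of 20 tested genes of fatty acid synthesis, 14 fell and 2 rose, against 0 to 1 higher and 11 to 15 lower when ethanol-fed mouse 2 or pair-fed mouse 2 or 3 was left out, with a median log2 fold change of -0.96 over all libraries. Acly, ATP citrate lyase, had 209, 95.4 and 121 CPM in ethanol-fed mice, against 676, 807 and 464 CPM in pair-fed mice. Srebf1, which encodes SREBP-1c, the insulin-driven activator of this pathway, had 106, 222 and 110.2 CPM in ethanol-fed mice, against 651, 502 and 494 CPM in pair-fed mice. Fads2, the Δ6 desaturase, had 248, 379.7 and 257 CPM in ethanol-fed mice, against 1147, 1023 and 1146 CPM in pair-fed mice (adjusted p = 2.75e-05). In all 3 the groups were apart. Fasn, fatty acid synthase, fell (log2FC -2.45 ± 0.71), but its call was lost without ethanol-fed mouse 3 and without pair-fed mouse 1 or 2, and its log2FC was -4.11 without ethanol-fed mouse 1. Scd1, stearoyl-CoA desaturase, was not called (log2FC -0.71 ± 0.28), but was without pair-fed mouse 3 (log2FC -1.003, adjusted p = 0.00901). With all mice Scd1 was called by DESeq2 (log2FC -0.72, adjusted p = 0.0338).

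Genes of cholesterol synthesis and uptake fell without a called rise, with 16 of 25 tested genes lower and 0 higher and a median log2 fold change of -1.09. Acat2, the cytosolic acetoacetyl-CoA thiolase, had 21.5, 13.9 and 11.2 CPM in ethanol-fed mice, against 72.4, 80.5 and 53.4 CPM in pair-fed mice. Insig1, which retains SREBPs in the endoplasmic reticulum, had 116, 82.8 and 30.6 CPM in ethanol-fed mice, against 399, 330.0 and 329 CPM in pair-fed mice. The groups were apart in both genes. Over the list the medians against the pair-fed mean were -0.74, -1.46 and -0.75 in ethanol-fed mice 1, 2 and 3, lowest in mouse 2. Further falls were those of Hmgcs1, whose promoter window is printed above (log2FC -1.43 ± 0.28), and Stard4, a sterol carrier (log2FC -1.23 ± 0.23).

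Lipid droplet genes went both ways. Of 22 tested, 7 rose and 7 fell, against 5 higher and 3 lower without ethanol-fed mouse 3, and 5 higher and 4 lower without pair-fed mouse 3. Plin2, the droplet coat protein of hepatocytes, had 474, 1095 and 1479 CPM in ethanol-fed mice, against 283, 354 and 427 CPM in pair-fed mice. Hilpda, an inhibitor of the lipase ATGL that is induced by hypoxia and fatty acids, had 4.97, 26.6 and 23.7 CPM in ethanol-fed mice, against 1.25, 3.27 and 1.87 CPM in pair-fed mice. Plin3, another coat protein (log2FC 0.97 ± 0.20), and Abhd5, the activator of ATGL (log2FC 0.98 ± 0.21), rose as well. Cidec had the largest rise of the list and Pnpla3 the largest fall. Of 25 apolipoproteins and lipases, 2 rose and 8 fell, against 2 higher and 5 lower without ethanol-fed mouse 3 or pair-fed mouse 1 or 3, and 4 higher and 5 lower with library totals. Apoa4, an apolipoprotein known to rise with hepatic triglyceride, had 937, 3652 and 4158 CPM in ethanol-fed mice, against 291, 423 and 280.4 CPM in pair-fed mice. Abca1, which exports cholesterol to HDL, rose (log2FC 1.15 ± 0.21). Apob was not called (log2FC 0.09 ± 0.16).

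**Figure D4:**
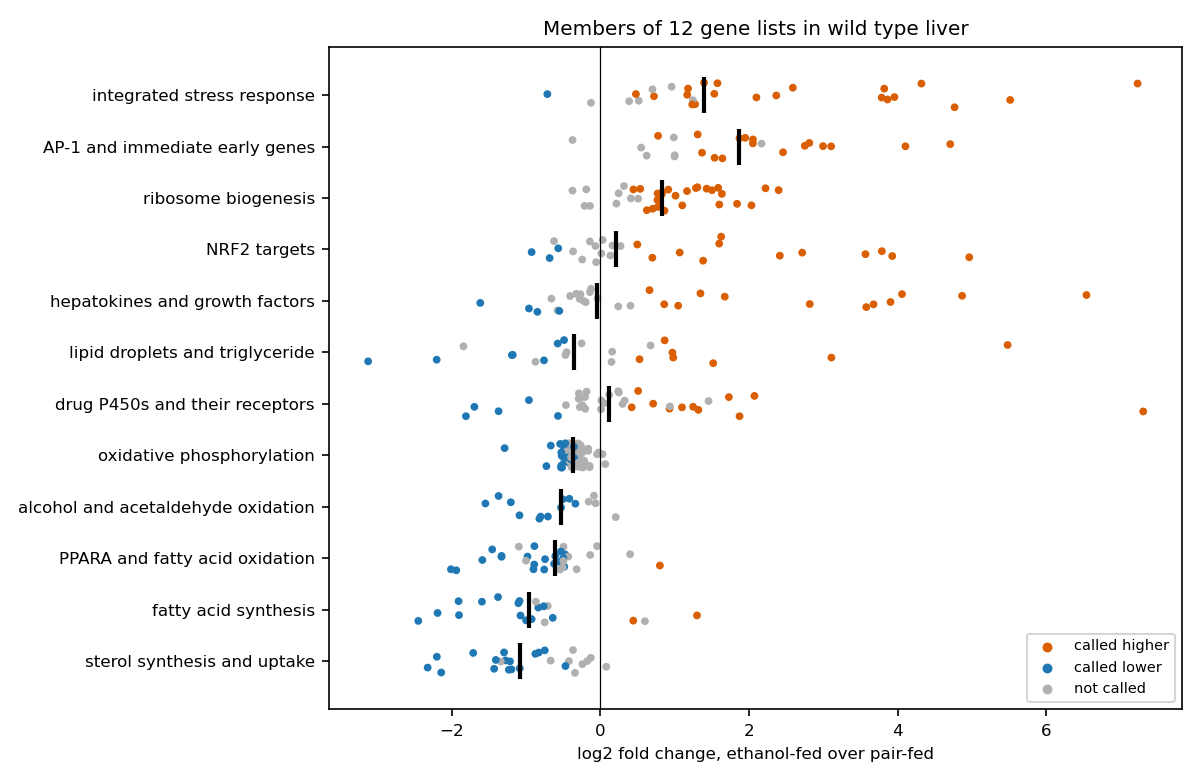
Log2 fold change of ethanol-fed over pair-fed wild type liver (horizontal axis) for every tested member of 12 gene lists, 1 row per list and 1 point per gene, from 3 mice a group. Orange points were called higher, blue points lower and grey points not called, and the black bar is the median of the list. The integrated stress response, with 20 of 27 members higher, lies to the right, and sterol synthesis, with 16 of 25 lower, to the left of 0.

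Xenobiotic P450 genes were regulated in both directions. Of 35 tested genes of these P450s and receptors, 11 rose and 5 fell, against 7 higher and 4 lower without ethanol-fed mouse 3. Besides Cyp2b10, Cyp2c29 had 3438, 3955 and 3832 CPM in ethanol-fed mice, against 1108, 892 and 1387 CPM in pair-fed mice. Cyp2c50 (log2FC 1.25 ± 0.16) and Cyp3a13 (log2FC 1.32 ± 0.23) rose as well. Cyp2c39 had 6.42, 4.85 and 6.56 CPM in ethanol-fed mice, against 13.7, 26.1 and 18.2 CPM in pair-fed mice, lower in each ethanol-fed mouse. Cyp2c genes are near-identical neighbours, and how their shared reads were counted is not stated in the labels or files. Of 24 glucuronosyl- and sulfotransferases, 4 rose and 10 fell, against 2 higher and 10 lower without pair-fed mouse 1. Sult2a8, a sulfotransferase of bile acids, had 53.6, 97.8 and 76.5 CPM in ethanol-fed mice, against 419, 444 and 402 CPM in pair-fed mice. Sult1b1 fell (log2FC -1.12 ± 0.18), and Sult1a1, the phenol sulfotransferase, rose (log2FC 1.00 ± 0.23).

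Bile acid genes also divided, with 5 of 22 tested higher and 7 lower, against 2 to 3 higher and 6 to 7 lower when ethanol-fed mouse 2 or pair-fed mouse 1, 2 or 3 was left out, and a median of -0.09 with TMM factors and 0.07 with library totals, which gave 6 higher and 5 lower. Abcc3, which exports bile acids to blood, rose (log2FC 1.11 ± 0.17), as did Abcc4 above. Nr0b2, the repressor SHP that bile acids induce through FXR, had 11.3, 11.5 and 3.49 CPM in ethanol-fed mice, against 44.8, 32.3 and 24.4 CPM in pair-fed mice. Slco1b2, an uptake carrier of the sinusoidal membrane, had 888, 534 and 537 CPM in ethanol-fed mice, against 1308, 1348 and 1429.9 CPM in pair-fed mice. Cyp27a1, a sterol hydroxylase, fell (log2FC -0.64 ± 0.12). Cyp7a1, the rate-limiting enzyme of bile acid synthesis, had 65.4, 29.6 and 125 CPM in ethanol-fed mice, against 292, 209 and 246 CPM in pair-fed mice. Every ethanol-fed mouse was below every pair-fed mouse for Cyp7a1, but the ethanol-fed mice differed widely and the gene was not called (log2FC -1.76 ± 0.89, adjusted p = 0.154). With the spread estimated from the 6 wild type libraries alone it was called (log2FC -1.76, adjusted p = 0.027). Cyp7a1 was called by limma's voom method too (log2FC -1.98, adjusted p = 0.0498).

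Genes of carbohydrate metabolism mostly fell where they changed. Of 28 tested, 8 fell and 1 rose, against 1 higher and 5 lower without pair-fed mouse 2, and 2 higher and 5 lower without pair-fed mouse 3, and 2 higher and 4 lower with library totals. Gys2, liver glycogen synthase, had 158, 230.2 and 141 CPM in ethanol-fed mice, against 504, 411 and 416 CPM in pair-fed mice. Ppp1r3g, a glycogen-targeting subunit of protein phosphatase 1, had 2.07, 8.84 and 5.33 CPM in ethanol-fed mice, against 26.4, 28.6 and 30.8 CPM in pair-fed mice. Both were lower in every ethanol-fed mouse, and so were Pfkfb1, a bifunctional regulator of glycolysis (log2FC -1.54 ± 0.33), and Pfkl, liver phosphofructokinase (log2FC -0.74 ± 0.14). Slc2a1, the glucose carrier GLUT1 that hepatocytes hardly use, rose (log2FC 1.33 ± 0.29). Pck1, the cytosolic PEP carboxykinase of gluconeogenesis, was not called (log2FC -0.72 ± 0.65).

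Nitrogen and sulfur metabolism changed in single steps. Of 15 urea cycle and ammonia genes, 4 rose and 3 fell, against 7 higher and 2 lower without ethanol-fed mouse 3, and 7 higher and 2 lower with library totals. Slc25a13, the aspartate-glutamate carrier citrin, had 196, 172 and 87.5 CPM in ethanol-fed mice, against 347, 404 and 392 CPM in pair-fed mice, while Slc25a15, the ornithine carrier, rose (log2FC 1.09 ± 0.22). Cps1, the entry enzyme of the cycle, was not called (log2FC 0.54 ± 0.20), but was without ethanol-fed mouse 3 (log2FC 0.69, adjusted p = 0.0229). With all mice Cps1 was called by DESeq2 (adjusted p = 0.0351) and by edgeR with library totals (adjusted p = 0.00996). Of 20 genes of methionine metabolism and transsulfuration, 4 rose and 6 fell, against 2 higher and 6 lower without ethanol-fed mouse 1 or pair-fed mouse 1, and 1 higher and 6 lower without pair-fed mouse 3. With library totals they gave 6 higher and 5 lower. Gamt, which uses S-adenosylmethionine to make creatine, had 216, 199 and 193 CPM in ethanol-fed mice, against 452, 405 and 396 CPM in pair-fed mice. Pemt, which makes phosphatidylcholine, fell (log2FC -0.61 ± 0.13), and Mat2a, the S-adenosylmethionine synthetase of dividing cells, rose (log2FC 0.59 ± 0.16). Of 32 amino acid breakdown genes, 2 rose and 6 fell, against 1 higher and 8 lower without ethanol-fed mouse 2, and 1 higher and 4 lower without pair-fed mouse 1, 2 or 3, and 6 higher and 5 lower with library totals, with Amt of the glycine cleavage system higher (log2FC 1.56 ± 0.16) and Haao of tryptophan breakdown lower (log2FC -0.61 ± 0.16). The median of that last list was -0.11 with TMM factors and 0.03 with library totals.

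Transcripts of secreted plasma proteins were lower in part. Of 34 carriers and protease inhibitors, 10 fell and 2 rose, against 4 higher and 10 lower with library totals. Alb, albumin, had 57554, 86152 and 63842 CPM in ethanol-fed mice, against 122692, 123745 and 125613 CPM in pair-fed mice, a log2FC of -0.84 ± 0.22 (adjusted p = 0.00995), and per gene length it had the highest level over both groups, at 33863 RPKM in ethanol-fed mice and 60703 RPKM in pair-fed mice. Of 16 coagulation proteins, 9 fell and 0 rose. Proz, protein Z, had 336, 261 and 216 CPM in ethanol-fed mice, against 494, 500.5 and 456 CPM in pair-fed mice. Proc, protein C (log2FC -0.58 ± 0.12), and F13b, the B subunit of factor XIII (log2FC -0.65 ± 0.12), were lower too. Of 21 complement proteins, 9 fell and 1 rose, against 0 to 1 higher and 3 to 7 lower when ethanol-fed mouse 3 or pair-fed mouse 1 or 2 was left out, and 1 higher and 5 lower with library totals. Mbl2, mannose-binding lectin (log2FC -0.59 ± 0.16), and C1ra, a protease of the C1 complex (log2FC -0.58 ± 0.14), fell, and C3 was not called (log2FC 0.08 ± 0.15).

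Acute phase genes were called in both directions. Of 26 tested, 4 rose (15.4%) and 3 fell (11.5%), shares below the 18.9% higher and 14.5% lower over all genes. Without ethanol-fed mouse 2 or pair-fed mouse 2 the counts were 2 higher and 3 lower. The list median was -0.02 with TMM factors and 0.12 with library totals. Orm3, an orosomucoid gene, had 26.3, 47.4 and 43.7 CPM in ethanol-fed mice, against 4.27, 2.40 and 1.58 CPM in pair-fed mice. Il1rn, the interleukin 1 receptor antagonist, rose (log2FC 1.11 ± 0.29). Saa4, the constitutive serum amyloid A, had 123, 90.5 and 71.99 CPM in ethanol-fed mice, against 242, 252 and 253 CPM in pair-fed mice. Il6ra, the interleukin 6 receptor, fell (log2FC -1.11 ± 0.23). The fibrinogen genes Fga and Fgb were not called (log2FC -0.22 ± 0.38 and -0.15 ± 0.34). Of 10 major urinary protein genes, whose near-identical copies share reads, 3 fell and 0 rose, Mup3 among them (log2FC -2.04 ± 0.26).

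Hormone and clock genes shifted. Of 14 genes of the growth hormone and IGF1 axis, 5 fell and 1 rose, against 2 higher and 5 lower without ethanol-fed mouse 1, and 1 higher and 2 lower without pair-fed mouse 3. Ghr, the growth hormone receptor, had 290.3, 301 and 281 CPM in ethanol-fed mice, against 564, 523 and 525 CPM in pair-fed mice. Igfbp3, a carrier of IGF1, fell (log2FC -1.42 ± 0.24), and Cish, a feedback inhibitor of STAT5 signalling, rose (log2FC 1.04 ± 0.21). Of 21 clock genes and outputs, 6 rose and 6 fell. Clock and Arntl, whose proteins form the activating pair of the oscillator, rose with log2FC of 1.28 ± 0.23 and 1.80 ± 0.45. Nfil3, a repressor in antiphase to the PAR bZIP factors, had 36.04, 88.4 and 116 CPM in ethanol-fed mice, against 12.3, 22.2 and 22.5 CPM in pair-fed mice, whereas the PAR bZIP factors Dbp, Hlf and Tef fell, with Dbp at 29.9, 33.4 and 29.7 CPM in ethanol-fed mice, against 189, 75.2 and 115 CPM in pair-fed mice. Usp2, a rhythmic deubiquitinase, had 26.5, 24.8 and 15.2 CPM in ethanol-fed mice, against 154, 169 and 135 CPM in pair-fed mice. In these genes no ethanol-fed value lay within the pair-fed range, beside 24.8% (ethanol above) and 22.3% (ethanol below) of all genes with groups apart. The hour of collection is not stated in the labels or files, and its part in these values was not tested.

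Hepatocyte identity and zonation genes were called in both directions. Of 28 hepatocyte transcription factors, 3 rose (10.7%) and 6 fell (21.4%), beside 18.9% and 14.5% over all genes. The counts were 5 higher and 9 lower without ethanol-fed mouse 1, and 5 higher and 4 lower with library totals. Cebpa fell (log2FC -0.69 ± 0.11), Klf15, a factor of fasting and amino acid use, fell (log2FC -1.22 ± 0.25), and Hnf4a was not called (log2FC -0.23 ± 0.24). Of 18 pericentral genes, which hepatocytes near the central vein express under Wnt signals, 9 fell and 3 rose, with a median of -0.64. Gulo, the last enzyme of vitamin C synthesis in mice, had 313, 367 and 331 CPM in ethanol-fed mice, against 687, 751 and 809.8 CPM in pair-fed mice. Rgn, regucalcin (log2FC -1.24 ± 0.21), and Tbx3, a pericentral transcription factor (log2FC -1.22 ± 0.20), fell likewise. Slc22a3, an organic cation carrier, rose (log2FC 2.36 ± 0.18). Of 17 periportal genes, 3 rose (17.6%) and 2 fell (11.8%), both under the shares over all genes. The counts were 2 to 4 higher and 1 to 4 lower when ethanol-fed mouse 1 or 3 or pair-fed mouse 1 or 3 was left out, and 4 higher and 1 lower with library totals. Cdh1, E-cadherin, was higher (log2FC 1.18 ± 0.21) and Etnppl, an ethanolamine phosphate lyase, lower (log2FC -1.84 ± 0.44).

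Inflammatory genes were divided between rises and falls. Of 19 targets and feedback regulators of NF-κB, 11 rose and 4 fell, against 5 to 6 higher and 2 to 3 lower when ethanol-fed mouse 3 or pair-fed mouse 2 or 3 was left out. Cd14, the co-receptor for bacterial endotoxin, which hepatocytes as well as macrophages express, had 10.04, 34.9 and 40.8 CPM in ethanol-fed mice, against 4.27, 3.97 and 4.68 CPM in pair-fed mice. Nfkb1, the p50 precursor (log2FC 0.98 ± 0.16), and Icam1, an adhesion molecule (log2FC 1.04 ± 0.19), rose too. Nfkbia, the inhibitor IκBα, had 36.9, 33.8 and 31.8 CPM in ethanol-fed mice, against 83.5, 93.2 and 89.5 CPM in pair-fed mice, a fall in all 3 mice. Of 20 cytokines and chemokines, 6 rose and 1 fell, against 3 higher and 1 lower without pair-fed mouse 2. Csf1, the macrophage growth factor (log2FC 0.63 ± 0.14), and Ccl6, a chemokine (log2FC 0.87 ± 0.19), were among the rises. Cxcl12, a chemokine made mainly by stromal and endothelial cells, had 236, 158 and 90.1 CPM in ethanol-fed mice, against 572, 535 and 626 CPM in pair-fed mice. Of 40 interferon-stimulated and MHC class I genes, 10 rose and 5 fell, against 6 higher and 3 lower without pair-fed mouse 3. Rsad2 and Oasl1, antiviral genes, rose with log2FC of 3.55 ± 0.65 and 2.30 ± 0.34, while Irf7 and Bst2 fell with log2FC of -1.13 ± 0.22 and -1.01 ± 0.17. Mouse 3 held the highest ethanol value in 27 of those 40 genes, against 36.0% over all genes.

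Markers of other liver cells were checked as summed levels, and in whole liver a lower value cannot distinguish fewer cells of a type from less RNA per cell. Of 16 tested markers of Kupffer cells and macrophages, 1 rose and 0 fell, against 0 to 1 higher and 0 to 12 lower when ethanol-fed mouse 1 or 3 or pair-fed mouse 2 was left out. The 12 lower calls came without ethanol-fed mouse 1. Their summed level was 999.8, 556 and 549 CPM in ethanol-fed mice, against 861, 641 and 809.5 CPM in pair-fed mice, so mouse 1 was above and mice 2 and 3 were below the pair-fed mice. Mouse 1 held the highest ethanol value in 15 of the 16 genes, against 36.1% over all genes, and Clec4f, which marks resident Kupffer cells, had 138, 74.4 and 62.9 CPM in ethanol-fed mice, against 117, 83.002 and 108 CPM in pair-fed mice. Clec4f was not called with all mice (log2FC -0.16 ± 0.26) and was without ethanol-fed mouse 1 (log2FC -0.58, adjusted p = 0.0304). Of 21 markers of sinusoidal endothelium, 6 rose and 2 fell, against 3 to 5 higher and 0 to 9 lower when ethanol-fed mouse 1, 2 or 3 or pair-fed mouse 2 or 3 was left out, and 6 higher and 0 lower with library totals. The 9 lower calls among them came without ethanol-fed mouse 1. Lyve1, a hyaluronan receptor, had 48.2, 31.5 and 30.2 CPM in ethanol-fed mice, against 9.35, 11.2 and 6.31 CPM in pair-fed mice. Wnt2, a Wnt ligand of these cells, rose (log2FC 1.56 ± 0.29). These 2 rises do not stand for the list, whose members ran from a log2 fold change of -0.74 to 2.03. Its median was -0.03 with TMM factors and 0.15 with library totals. The median of this list against the pair-fed mean was 0.47, -0.24 and -0.33 in ethanol-fed mice 1, 2 and 3, the same order as in the Kupffer cell markers and the chaperones.

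**Figure D5:**
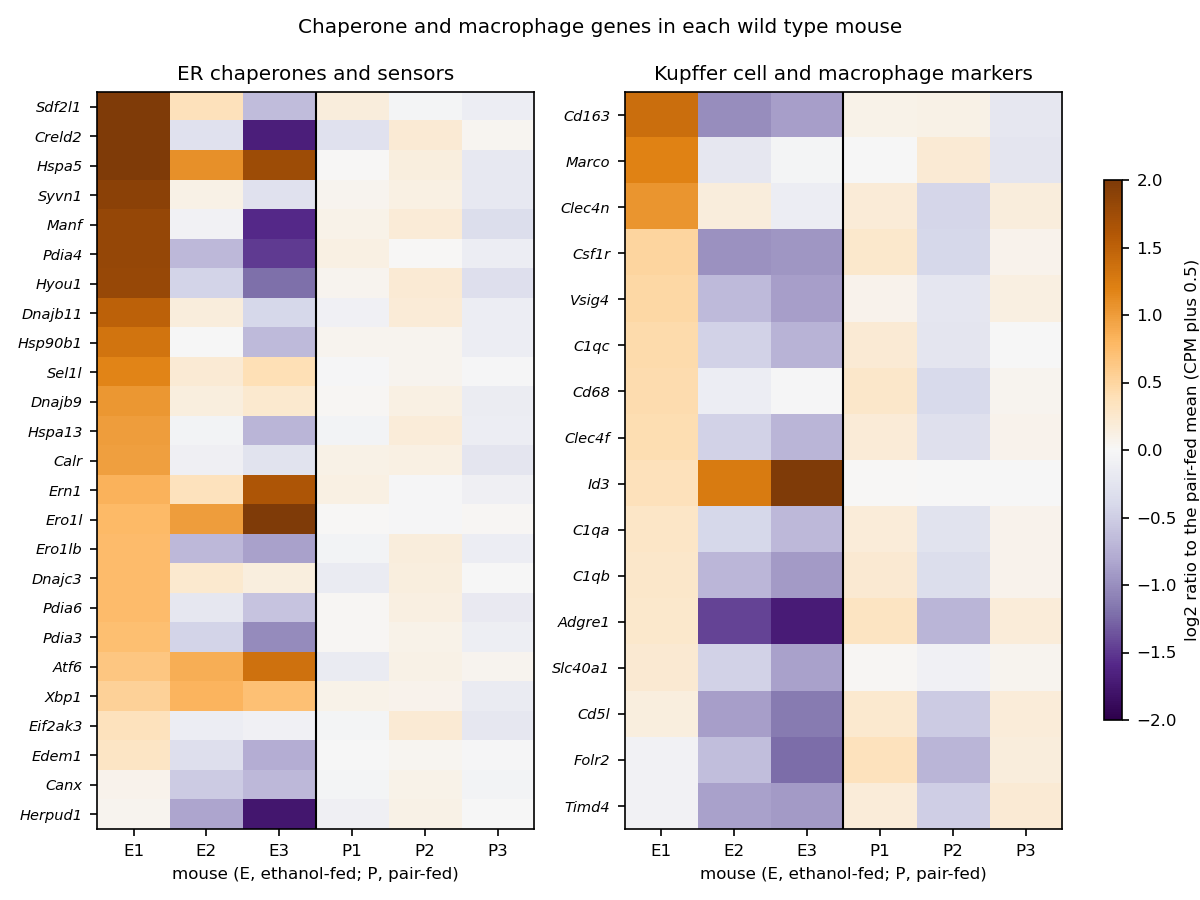
Log2 ratio of each tested endoplasmic reticulum chaperone or sensor (left) and each Kupffer cell and macrophage marker (right) to the mean of the 3 pair-fed mice, 1 row per gene and 1 column per mouse, with ethanol-fed mice 1 to 3 left of pair-fed mice 1 to 3. Orange is higher and purple lower, on a scale limited to ±2. Most genes of both lists are orange in ethanol-fed mouse 1 and purple in mouse 3.

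Neutrophil markers were few in the table, and of 4 tested, 1 rose and 0 fell, against 0 higher and 0 lower without ethanol-fed mouse 2 or pair-fed mouse 2. S100a9, a calcium-binding protein of neutrophils, had 1.04, 2.28 and 1.03 CPM in ethanol-fed mice, against 0.570, 0.292 and 0.234 CPM in pair-fed mice, and its call was lost without ethanol-fed mouse 2 and without pair-fed mouse 2 or 3. Lcn2, which injured hepatocytes also make, was not called (log2FC 0.95 ± 0.81), nor was Csf3r, the receptor for the neutrophil growth factor (log2FC -0.29 ± 0.29). Of 15 markers of T and NK cells, 0 rose and 2 fell, against 0 higher and 1 lower without ethanol-fed mouse 1, 2 or 3 or pair-fed mouse 3, and 0 higher and 0 lower without pair-fed mouse 1, and of 10 markers of B and plasma cells 0 rose and 1 fell, against 0 higher and 2 lower without ethanol-fed mouse 1 or pair-fed mouse 2, and 0 higher and 0 lower without ethanol-fed mouse 2 or 3 or pair-fed mouse 1 or 3, and 0 higher and 0 lower with library totals. Of 9 monocyte and dendritic cell markers, 0 rose and 1 fell, against 0 higher and 4 lower without ethanol-fed mouse 1, and 1 higher and 1 lower without pair-fed mouse 1. The medians of these lymphocyte lists were -0.61 for T and NK cells and -0.62 for B and plasma cells. Hepatocyte markers gave 2 higher and 5 lower of 15, against 0 to 2 higher and 3 to 5 lower when any 1 of the 6 mice was left out, and 4 higher and 4 lower with library totals, and all 15 were present in every library.

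Several genes of the cytoskeleton and of bile duct cells rose. Of 29 cytoskeletal genes, 11 rose and 5 fell, against 10 higher and 3 lower without ethanol-fed mouse 2 or pair-fed mouse 2, and 10 higher and 2 lower without pair-fed mouse 1 or 3, and 12 higher and 2 lower with library totals. Actg1, cytoplasmic γ-actin, had 7.46, 14.5 and 9.38 CPM in ethanol-fed mice, against 1.94, 1.11 and 1.58 CPM in pair-fed mice. Tubb6, a β-tubulin, had 20.8, 36.3 and 63.8 CPM in ethanol-fed mice, against 10.1, 10.5 and 10.3 CPM in pair-fed mice. Krt8, a keratin of hepatocytes, had 123, 206 and 236 CPM in ethanol-fed mice, against 79.5, 73.8 and 62.02 CPM in pair-fed mice. All 3 were raised without overlap between groups. Krt23, a keratin induced in stressed liver, had 9.84, 47.9 and 89.02 CPM in ethanol-fed mice, against 0.912, 1.29 and 3.04 CPM in pair-fed mice. Prom1, a progenitor and duct marker, had 26.98, 53.01 and 29.3 CPM in ethanol-fed mice, against 2.96, 2.51 and 3.68 CPM in pair-fed mice. They led the 11 tested markers of bile duct cells, of which 4 rose and 2 fell, against 2 to 4 higher and 0 to 1 lower when ethanol-fed mouse 2 or 3 or pair-fed mouse 1, 2 or 3 was left out, and 4 higher and 0 lower with library totals. The summed level of that list was 107, 186 and 198 CPM in ethanol-fed mice and 67.9, 95.3 and 93.5 CPM in pair-fed mice. Without Krt23 and Prom1, left out after their values were seen, it was 69.95, 84.8 and 79.99 CPM in ethanol-fed mice and 64.01, 91.5 and 86.8 CPM in pair-fed mice, and the list median was -0.20. Stellate cell markers gave 3 higher and 2 lower of 18, against 1 to 3 higher and 1 lower when ethanol-fed mouse 1 or 3 or pair-fed mouse 1, 2 or 3 was left out, and 3 higher and 1 lower with library totals, and of 31 collagens and matrix genes 7 rose and 3 fell, against 4 to 8 higher and 1 to 3 lower when ethanol-fed mouse 3 or pair-fed mouse 1 or 3 was left out, and 9 higher and 1 lower with library totals. With all mice the stellate shares, 16.7% higher and 11.1% lower, were under the 18.9% and 14.5% over all genes. The matrix shares were 22.6% higher and 9.7% lower. Col4a1 and Col4a2, which share a promoter and encode basement membrane collagen, rose with log2FC of 1.11 ± 0.23 and 0.99 ± 0.25. Adamts1, a matrix protease, rose as well (log2FC 2.17 ± 0.36).

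Cell cycle and hypoxia genes were called in both directions. Of 28 cyclins and replication genes, 2 rose (7.1%) and 4 fell (14.3%), beside 18.9% and 14.5% over all genes. The counts were 2 higher and 7 lower without ethanol-fed mouse 2, and 2 higher and 2 lower without ethanol-fed mouse 3 or pair-fed mouse 1, 2 or 3. With library totals they were 2 higher and 2 lower. Cdk2 had 5.75, 5.19 and 2.92 CPM in ethanol-fed mice, against 14.9, 15.8 and 19.3 CPM in pair-fed mice. Ccne1 fell (log2FC -1.81 ± 0.36) and Mcm2, a subunit of the replicative helicase, rose (log2FC 2.19 ± 0.36), while Ccnd1 was not called (log2FC -0.34 ± 0.44). Of 19 genes of the hypoxia response, 3 rose and 6 fell, against 5 higher and 6 lower without ethanol-fed mouse 1, and 7 higher and 3 lower with library totals, with medians of -0.08 with TMM factors and 0.08 with library totals. Bnip3l, a mitophagy receptor (log2FC -0.69 ± 0.15), and Pdk1, a pyruvate dehydrogenase kinase (log2FC -1.11 ± 0.30), fell, whereas Hilpda of the same list rose.

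The response of wild type liver was set against that of mice labelled knockout by a test of the difference itself. In that interaction test 1 of 13097 genes was called (0.00764%), against 696 at an unadjusted p under 0.05 and 15 called by DESeq2. The 1 gene was Cyp2b10, which had 24020, 16891 and 15509 reads in ethanol-fed and 1368, 951 and 1048 reads in pair-fed mice labelled knockout, with no overlap between them. Its log2 fold change was 7.31 ± 0.22 in wild type mice and 4.01 ± 0.19 in mice labelled knockout, a difference of 3.30 ± 0.25 (adjusted p = 7.44e-05). Leaving out ethanol-fed mouse 1 gave 20 genes called and leaving out ethanol-fed mouse 3 gave 2. A test that calls few genes does not show that the 2 responses were alike.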

How the data were processed

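Liver RNA of 12 mice was sequenced from Illumina TruSeq RNA libraries, per the labels' protocols. The deposited counts are raw whole-number read counts per gene, per the file headers, and the tools listed in the submitters' processing notes are edgeR 3.20.8, featureCounts, Subread 1.5.3 and STAR 2.5, with build mm10. The gene annotation, the strand setting and the treatment of reads that match several genes are not stated in the labels or files, so genes that overlap or share sequence may exchange reads. The authors also deposited log2 CPM values and their own log2 fold changes between genotypes, which were not used. The p-values in the authors' deposited comparisons of genotypes were not used either.

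From the counts, edgeR 4.0.16 (R 4.3.3) fitted all 12 libraries with 1 coefficient a group, TMM factors and robust quasi-likelihood dispersions. Every gene of the table was tested with no further filter, and p-values were adjusted by Benjamini and Hochberg over all 13097 genes. Standard errors were taken as the fold change on the log2 scale over the square root of F. They are approximate, because the spread of a gene was estimated over all groups together. The wider spread of ethanol-fed mice was not allowed for separately. Per-mouse list medians used log2 ratios of CPM plus 0.5. The fit was tested on simulated counts with 200 changed genes. Replicate libraries differed by more than counting error, with a chi-square per degree of freedom between 14.9 and 111. RPKM values were computed from the counts and the deposited exon lengths.

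Genes and lists were chosen with earlier results of these data known. Named genes were the 12 largest rises and falls among called genes averaging 1 CPM or more with groups that did not overlap, leaving out clone and predicted names. To these were added up to 6 members of each list by p and 2 by level, and the 10 highest levels per length. Psat1, Ddit3, Atf4, Shmt2, Fgf21, Nqo1, Gclm, Aldh2, Cyp7a1, Arntl and Dbp fall outside that rule for their expression values and were named after their values were seen. Alternatives were other size factors, filters on low counts, DESeq2 1.42.0, limma 3.58.1 (voom), the 6 wild type libraries alone, a replicate block and each library left out. Lists of red cell and of pancreas, fat, muscle and gut markers had 3 and 4 tested genes, with 0 rises in either and 1 fall in the second. A few genes of the lists are not reported here by name.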

Additional observations from a re-analysis of the deposited data

Results flagged for a closer look

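The ethanol response of Cyp2b10 differed between wild type mice and mice labelled knockout, and the difference itself was tested. Its log2 fold change of ethanol-fed over pair-fed was 7.31 ± 0.22 in wild type mice and 4.01 ± 0.19 in mice labelled knockout. The difference was 3.30 ± 0.25 (approximate SE, 3 mice a group, edgeR's quasi-likelihood test, adjusted p = 7.44e-05 over 13097 genes). In wild type mice it had 21897, 22009 and 28733 reads in ethanol-fed and 150, 140 and 130 reads in pair-fed mice. In mice labelled knockout it had 24020, 16891 and 15509 reads in ethanol-fed and 1368, 951 and 1048 reads in pair-fed mice. Reads of ethanol-fed mice overlapped between the labels, whereas in pair-fed mice the lowest value under the knockout label was above the highest wild type value.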

How the results depend on the processing

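Of the 4380 genes called, 2576 were called whenever any 1 of the 6 wild type libraries was left out, and 2465 in those and all other settings. Leaving out 1 library gave between 3023 and 4884 calls, with 1732 to 2765 higher and 1291 to 2119 lower, and 1308 to 2208 genes called and changed at least 2-fold. With library totals 1123 genes were lower, against 1900 with TMM. A test against a 2-fold threshold (glmTreat) called 331 genes, 250 higher and 81 lower, against 1763 from the fold limit on called genes. In the interaction, DESeq2 called 15 genes, and leaving out 1 library gave between 1 and 20. The other settings gave 3483 to 4696 calls, the lowest with the 6 wild type libraries alone and the highest with DESeq2. The replicate number as a block gave 3949 calls, 1680 of them at least 2-fold, and 1 interaction call. The deviations of same-numbered ethanol-fed and pair-fed mice correlated at 0.0277, -0.0141 and -0.0529, under the 0.1 needed to treat the numbers as pairs, and not every mouse correlated best with its own number.

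For 226 genes in the text, 3098 of 3148 values under an alternative kept their direction and side of the threshold and 0 called values changed sign. Of these genes 206 were called, and they were chosen largely by p or size of change in this same comparison. That agreement was thus largely set by the choice and does not stand for all called genes. In 28 values from 7 genes (Artn, A1bg, Ern1, Egr1, Aldh2, Fasn and S100a9) the call was lost, and in 9 values a gene gained a call. The cause was not tested. With 3 mice a group and ethanol-fed mice that differ widely, a gene without a call is not shown to be unchanged. Low counts limit Artn, Areg, Tnfaip6 and Mpp4. They also limit other genes under 1 CPM in pair-fed mice, such as Gsta1, Acot5, Bmp8b, Nrg1 and S100a9.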
